A study of Mus musculus with 6 samples.

Results

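The genes described here are the protein-coding genes of mouse chromosomes 7 and 13 (mm10, GENCODE vM21) whose symbol is Zfp followed by a digit, with Zfp36 left out because it is not a member of the C2H2 class. There were 127 of them among 21938 protein-coding genes counted, 91 on chromosome 7 and 36 on chromosome 13. They were measured by cap analysis of gene expression (CAGE), which counts the capped 5′ ends of RNA base by base, in nuclear RNA of a pair of mouse lines. The first is R08, a male embryonic stem cell (mESC) line grown without feeder cells and with leukemia inhibitory factor. The second is Oli-neu, a line of oligodendrocyte progenitors (mOPC) grown with bFGF, PDGF-BB and thyroid hormones. Each line gave 3 libraries, and the labels name no treatment and no genetic alteration for the comparison. Whether a line was genetically altered when it was established is not stated there. The study's methods use biological replicate for a batch of cells at another passage number, but neither they nor the labels state that the 3 CAGE libraries of a line were such batches, so the p-values measure the spread between these libraries, which may be technical. The library code in the files differs between the lines, and the preparation and the line therefore cannot be told apart. Each line is also 1 line, so a difference between the lines cannot be told apart from a difference between the cell types.

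C2H2 zinc finger proteins bind DNA with tandem fingers, each a short loop held by a pair of cysteines and a pair of histidines around a zinc ion, and each contacting a few bases. Many of them carry a KRAB domain at the amino end. That domain recruits the co-repressor Trim28 (KAP1), which brings in the histone methyltransferase Setdb1, HP1 proteins and DNA methylation, and in embryonic stem cells this machinery silences endogenous retroviruses and protects imprinted loci. The genes arose by repeated tandem duplication and lie side by side in clusters. In translations of the GENCODE transcripts, 125 of the 127 genes (98.4%) encoded at least 2 repeats with C2H2 spacing, against 3.10% of all protein-coding genes, and the median was 11 repeats. A stretch with the letters of the KRAB A box was found in 65 of the 127 (51.2%), against 38.2% of the 267 Zfp genes of other chromosomes.

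Libraries held between 16657021 and 40928704 tags, so that a level of 1 CPM, a count per 1000000 tags, stood for 16.7 to 40.9 tags. A gene's level is the number of tags on its strand within 500 bp of any of its annotated 5′ ends, in CPM of the library's total. A tag marks 1 capped end, so this level does not grow with the length of the transcript, although genes with several 5′ ends have wider windows. The identity of the lines was checked on marker genes. All 8 stem cell markers were higher in mESCs (summed level 3841 to 4182 CPM against 41.2 to 46.0 in mOPCs), and Pou5f1, Nanog and 3 others had no tag in any mOPC library. Of 8 progenitor markers, 7 were tested and all 7 were higher in mOPCs (1789 to 1894 CPM against 19.9 to 21.3). Among these, Pdgfra, a defining marker of progenitors, was only at 8.33 CPM in mOPCs, and Nkx2-2 had no tag there. The 4 markers of microglia summed to at most 0.139 CPM in any library, those of fibroblasts to 9.67 to 12.3 CPM in mOPCs and 17.9 to 23.4 CPM in mESCs, those of neurons to 81.3 to 102 CPM and 10.3 to 10.9 CPM, and those of astrocytes to 82.7 to 94.7 CPM and 46.7 to 50.7 CPM. In mOPCs 1 gene made up most of each of the last sums, Syt1 with 88.3 CPM and Slc1a3 with 89.5 CPM on average. The neuron markers Rbfox3 and Snap25 had no tag in mOPCs, Tubb3 was at 0.70 CPM, and all 3 were higher in mESCs. Of the other astrocyte markers, Gfap was at 0.99 CPM and Aldh1l1 at 0.023 CPM in mOPCs, and Aqp4 had no tag there. The part of other cell types in the results was not tested.

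Promoter sequences of 8 of the genes are printed first, because the levels and starts of these genes are described in detail. They were taken from RefSeq (GRCm38.p6, the mm10 assembly), run 5′ to 3′ on the gene's strand, and end 15 bases after the most used start position of the line with the higher level. The capitals mark that position, as the files list it, and the base after it. The first 4 genes are copies on chromosome 7 within cluster 7-8, the next pair are neighbours in cluster 13-2, and the last pair were chosen after their values were seen, as large decreases from mESCs to mOPCs on each chromosome.
Zfp977, chr7:42592567-42592657, minus strand: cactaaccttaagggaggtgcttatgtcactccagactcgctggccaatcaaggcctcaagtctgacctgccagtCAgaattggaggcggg
Zfp936, chr7:43177483-43177573, plus strand: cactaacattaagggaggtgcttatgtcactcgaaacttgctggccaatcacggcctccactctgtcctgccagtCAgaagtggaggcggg
Zfp976, chr7:42642576-42642666, minus strand: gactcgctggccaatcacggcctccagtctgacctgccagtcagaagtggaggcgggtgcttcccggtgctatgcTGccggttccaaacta
Zfp975, chr7:42692750-42692840, minus strand: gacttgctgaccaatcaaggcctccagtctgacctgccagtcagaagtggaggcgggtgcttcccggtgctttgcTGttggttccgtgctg
Zfp874a, chr13:67451594-67451684, minus strand: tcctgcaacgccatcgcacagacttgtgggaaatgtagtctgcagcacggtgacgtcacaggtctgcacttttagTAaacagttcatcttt
Zfp874b, chr13:67484222-67484312, minus strand: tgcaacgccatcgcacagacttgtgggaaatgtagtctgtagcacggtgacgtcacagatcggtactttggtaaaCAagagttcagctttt
Zfp941, chr7:140822155-140822245, minus strand: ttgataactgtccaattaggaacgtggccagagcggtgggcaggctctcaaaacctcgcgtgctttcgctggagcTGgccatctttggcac
Zfp808, chr13:62129849-62129939, plus strand: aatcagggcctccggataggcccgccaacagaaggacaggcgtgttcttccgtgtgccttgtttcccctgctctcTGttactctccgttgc

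In 87 of 95 promoters that hold the gene's most used start (91.6%), the listed base was C or T and the next base A or G, the usual initiator pair, whereas the base before it and the listed base formed such a pair in 0 of 95. The listed position was thus 1 base upstream of the purine on both strands (36 of 40 promoters on the plus strand and 51 of 55 on the minus strand).

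The whole set gave more tags in mESCs. Summed over the union of their windows, the 127 genes held 5562, 5722 and 5651 CPM in mESCs and 2316, 2348 and 2334 CPM in mOPCs. The mESC sum was 2.42 times the mOPC sum. The 5 most used genes in mESCs (Zfp975, Zfp808, Zfp976, Zfp141 and Zfp260) made up 35.5% of the mESC sum, whereas the 5 most used in mOPCs (Zfp169, Zfp369, Zfp458, Zfp329 and Zfp260) made up 13.8% of the mOPC sum. The median gene was at 18.7 CPM in mESCs and 14.7 CPM in mOPCs. A mean above 100 CPM was reached by 14 genes in mESCs and by 0 in mOPCs, where the highest gene, Zfp169, was at 82.7 CPM. Fewer transcribing cells and fewer RNA molecules per cell cannot be told apart in such bulk samples.

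Counts of all 21938 genes were compared with the quasi-likelihood test of edgeR, and 14222 genes passed the filter on low counts. Of the 127 genes, 124 passed, and 66 of these (53.2%) were called higher in mESCs at a Benjamini-Hochberg adjusted p under 0.05, beside 48.8% of all genes tested. Another 41 (33.1%) were called higher in mOPCs, beside 42.4% of all genes tested, and 17 were not called. The libraries of the lines did not overlap for 114 of the 124, beside 91.4% of all genes tested. Most genes of the genome thus passed the adjusted p alone, and a second rule, added after the values were seen, also asked for at least a 2-fold difference. By that rule 48 of the 124 (38.7%) were higher in mESCs, beside 35.2% of all genes, and 17 (13.7%) were higher in mOPCs, beside 28.2% of all genes. The share higher in mESCs was thus near the share of all genes, and the share at least 2-fold higher in mOPCs was lower than that of all genes. On the log2 scale of mOPC over mESC, the median over the 124 genes was -0.45, beside -0.16 over all genes tested. The Zfp genes of the other chromosomes had a median of 0.22, with 61 of 230 tested (26.5%) at least 2-fold higher in mESCs and 72 (31.3%) at least 2-fold higher in mOPCs. Among the 63 tested genes with the KRAB letters the median was -0.54, and 25 (39.7%) were at least 2-fold higher in mESCs. Among the 61 without them the median was -0.16, and 23 (37.7%) were at least 2-fold higher in mESCs. These group values are descriptions, and no test of the difference between groups was made.

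**Figure D1:**
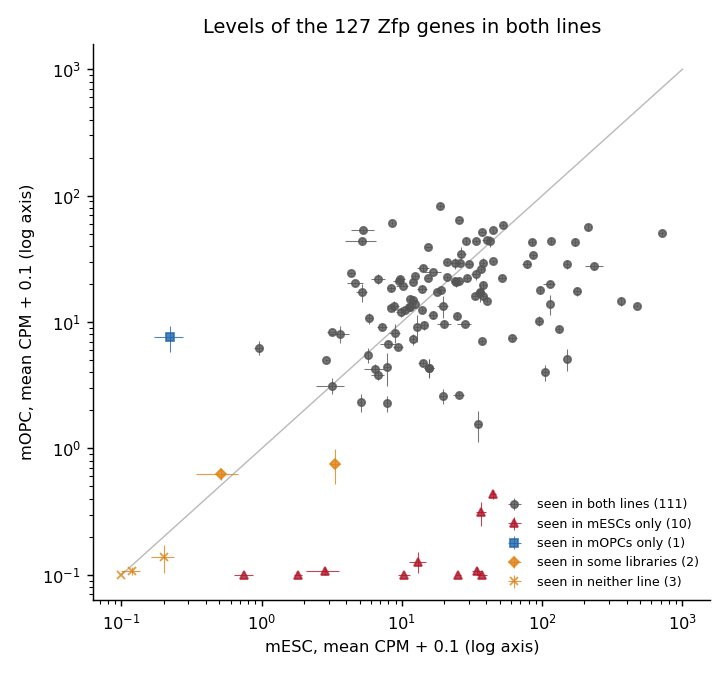
Mean CPM of each of the 127 genes in mESCs (horizontal axis) and mOPCs (vertical axis), both on a log axis after adding 0.1, with bars of 1 SD over 3 libraries, symbols for the lines in which a gene was seen, and a line of equal levels. The triangles at the bottom are the 10 genes seen in mESCs only, the square at the left is Zfp536, and no gene is above 82.7 CPM in mOPCs.

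By position, the genes form 11 clusters of at least 3 genes, in which each gene starts within 500 kb of the next. The clusters hold 105 of the 127 genes, and the other 22 lie outside them, alone or in groups of fewer than 3. They are called here by chromosome and order, 7-1 to 7-9 along chromosome 7 and 13-1 and 13-2 along chromosome 13. Their median differences ran from 0.65 in cluster 7-1 to -3.82 in cluster 7-8 on the log2 scale of mOPC over mESC, and the median of the 22 genes outside clusters was -0.24. Medians were below -1 in 3 clusters (7-8, 13-1 and 13-2), between -0.68 and -0.27 in 4 (7-9, 7-7, 7-6 and 7-3), and above 0 in the other 4 (7-1, 7-2, 7-4 and 7-5). Clusters 7-8, 13-1 and 13-2 gave 1467, 489 and 1095 CPM in mESCs and 158, 17.7 and 327 CPM in mOPCs. The spans of the 11 clusters also hold 101 other protein-coding genes, some of which share windows with the genes described here. Of these, 66 were tested, and their median was -0.92. By the 2-fold rule, 32 (48.5%) were higher in mESCs and 9 (13.6%) in mOPCs, beside 35.2% and 28.2% of all genes tested. Among the 52 tested ones with fewer than 2 C2H2 repeats, the median was -0.54, with 23 (44.2%) and 9 (17.3%) in these directions.

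**Figure D2:**
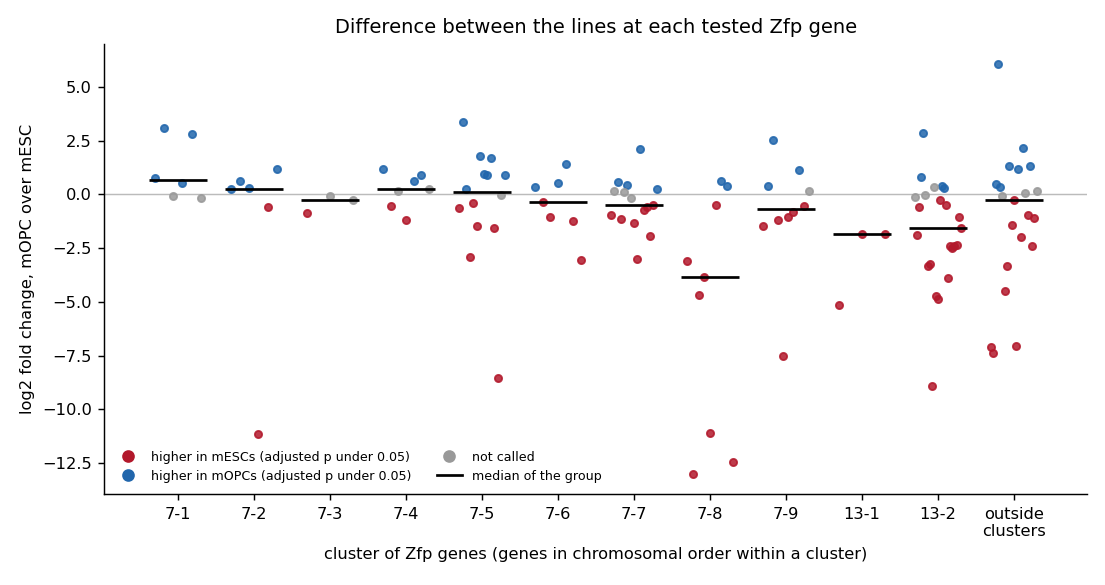
Log2 fold change (mOPC over mESC) of each of the 124 tested genes, with clusters in chromosomal order on the horizontal axis, genes in chromosomal order within a cluster, colours for the edgeR call, and a black bar at the median. The medians of clusters 7-8, 13-1 and 13-2 lie at -3.82, -1.83 and -1.57, and points below -5 also occur in other clusters. Points below -6 belong to genes with 0 to 30 mOPC tags in all, and their depth on this axis depends on the prior count of the fit where no tag was found.

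Cluster 7-8 (chr7:42473386-43618285) gave 9.26 times as many tags in mESCs as in mOPCs. From its first gene, Zfp141, to Zfp936, the 5 neighbours were all lower in mOPCs. Zfp141 was at 198, 267 and 240 CPM in mESCs and at 26.96, 29.2 and 26.1 CPM in mOPCs (log2 fold change -3.10, SE 0.09, edgeR adjusted p = 8.1e-35). Zfp975, the gene with the highest level of the set, was at 731, 728 and 685 CPM in mESCs and at 51.8, 51.0 and 48.6 CPM in mOPCs (-3.82, SE 0.09, edgeR adjusted p = 1.4e-40). Every mESC library was therefore more than 10 times above every mOPC library at Zfp975. Zfp976 was at 364, 372 and 364 CPM in mESCs and at 14.9, 15.3 and 13.2 CPM in mOPCs (-4.67, SE 0.09, edgeR adjusted p = 7.3e-44).

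Zfp977 and Zfp936, copies of the same family, were seen in mESCs only. Zfp977 had 40.4, 34.9 and 36.1 CPM in mESCs and no tag in any of the 3 mOPC libraries, whose pooled depth was 91692553 tags. Taking 3 tags over these pooled libraries as the floor, Zfp977 was at least 1163-fold higher in mESCs. Zfp936 had 31.6, 37.3 and 33.9 CPM in mESCs and 1 tag in all of mOPCs, a ratio of 3071 with a 95% exact binomial interval of 551 to 121346 that covers counting error only. The last gene of the cluster, Zfp819, whose protein is known to bind Trim28, was at 26.1, 24.2 and 25.1 CPM in mESCs and had no tag in mOPCs, at least 777-fold higher in mESCs. Between Zfp936 and Zfp819 lay 3 genes used in both lines. Zfp715 was at 12.7 ± 0.46 CPM in mESCs and 9.10 ± 2.19 CPM in mOPCs (SD, n = 3 each). Zfp658 (8.22 ± 0.35 and 12.9 ± 0.56 CPM) and Zfp719 (33.5 ± 1.72 and 44.1 ± 1.61 CPM) were higher in mOPCs, by 0.64 and 0.40 on the log2 scale. They were named after their values were seen.

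**Figure D3:**
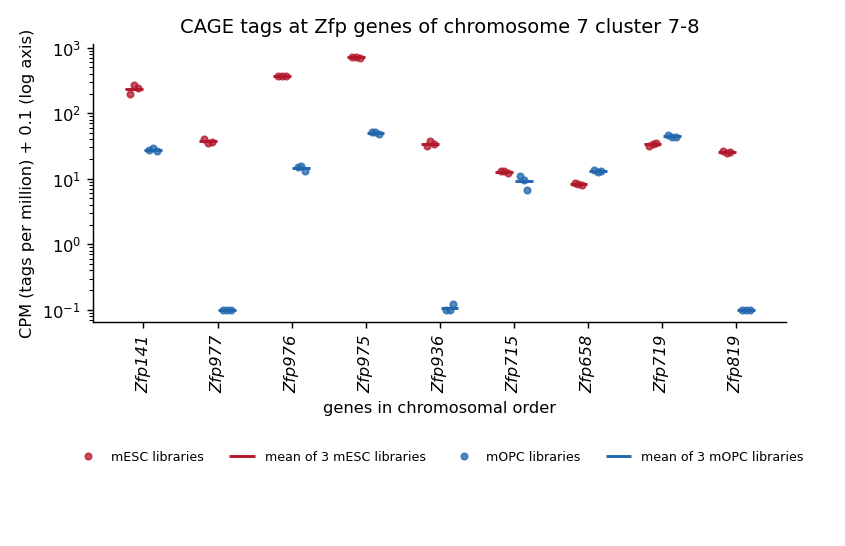
CPM plus 0.1 (log axis) at the 9 genes of cluster 7-8 in chromosomal order, with 1 point per library and a bar at the mean of 3 libraries for mESCs and mOPCs. Zfp977 and Zfp819 have no tag in mOPCs and Zfp936 has 1, whereas Zfp715, Zfp658 and Zfp719 lie close together in both lines.

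The 4 copies printed first have much of their promoter in common. Aligned RefSeq promoters of 300 bases were 92.9% identical between Zfp977 and Zfp936 (274 of 295 aligned bases) and 90.8% identical between Zfp976 and Zfp975 (217 of 239), and the other 4 pairs ranged from 88.4% to 90.5%. The genes nevertheless split by the position with the most tags. In the alignment, the most used start of Zfp977 coincided with that of Zfp936, and the most used start of Zfp976 coincided with that of Zfp975, 34 bases further downstream. At Zfp976, the 21 bases around the upstream position gave 38.3 CPM in mESCs and 3.27 CPM in mOPCs, and those around the downstream position gave 297 and 9.61 CPM. Zfp975 gave 7.47 and 0.82 CPM around the upstream position and 576 and 37.2 CPM around the downstream one. At Zfp977 and Zfp936 the downstream position held almost no tags in mESCs (0.092 and 0.22 CPM, against 17.5 and 32.2 CPM around their own start). Of the 4 genes, Zfp976 and Zfp975 had tags left at these positions in mOPCs. They had the most tags at the downstream position and the higher mESC levels. Within each of these genes, however, the downstream position kept a smaller share of its mESC level in mOPCs than the upstream one. A link between the position and the level in mOPCs was not tested. A word of 5 bases, CCAAT, lay in all 4 promoters on 1 or the other strand, as it did in 37.4% of all RefSeq promoters; this word was searched after the sequences were seen.

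Such similarity limits what tags of 21 to 27 bases can tell. Part of the 25-base words in the first 100 bases of the transcripts also occurred in the transcripts of other genes. This share was 83.3% at Zfp936, 67.1% at Zfp977, 56.5% at Zfp975 and 54.6% at Zfp976. The paper's methods keep only uniquely placed tags, but whether this holds for the deposited counts is uncertain. Levels of these 4 genes are therefore uncertain. They may be too low, or too high where a tag of another copy was placed there. The start positions of these genes are uncertain for the same reason, and whether tags of each position can be placed uniquely was not tested. Over all 127 genes the median of this share was 0.66%, it was 0 at 63 genes, and it was above 50% at 12. Zfp819, where 1.65% of the words were shared, had no tag in mOPCs either.

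Cluster 13-1 (chr13:62129886-62571199) consisted of Zfp808 and the pair Zfp935 and Zfp934, and all were lower in mOPCs. Zfp808 was at 460, 475 and 484 CPM in mESCs and at 13.2, 13.3 and 13.8 CPM in mOPCs (log2 fold change -5.13, SE 0.10, edgeR adjusted p = 1.7e-45). It was the second most used gene of the set in mESCs and lay below the median gene in mOPCs. Zfp935 and Zfp934 share their 5′ ends, and their values (named after they were seen, 15.5 CPM each in mESCs, 4.25 and 4.27 CPM in mOPCs) cannot be told apart. The span also holds a pair of other C2H2 genes, Gm3604 and Gm49359, named after their values were seen. Gm3604 was at 54.3 CPM in mESCs and 0.0315 CPM in mOPCs, whereas Gm49359 was at 89.1 CPM in mESCs and 55.7 CPM in mOPCs.

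Cluster 13-2 (chr13:67038596-67827002) was the largest, with 23 genes, 19 of them on the minus strand. All 23 were tested: 16 (69.6%) were called higher in mESCs, beside 48.8% of all genes tested, 4 (17.4%) higher in mOPCs, beside 42.4%, and 3 were not called. At least a 2-fold difference was found for 13 (56.5%) in the first direction, beside 35.2% of all genes tested, and for 1 (4.35%) in the other, beside 28.2%. The first gene, Zfp712, did not pass the test (edgeR adjusted p = 0.40), with 9.32, 9.19 and 7.81 CPM in mESCs and 7.07, 9.78 and 7.60 CPM in mOPCs. The last, Zfp273, was at 12.96, 14.8 and 14.001 CPM in mESCs and at 4.79, 4.82 and 4.398 CPM in mOPCs (-1.57, SE 0.13, edgeR adjusted p = 6.0e-17).

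Neighbours in this cluster differed sharply. Zfp874a was at 153, 152 and 149 CPM in mESCs and at 3.83, 5.37 and 5.81 CPM in mOPCs (-4.88, SE 0.11, edgeR adjusted p = 8.3e-41). The next gene, Zfp874b, was at 28.2, 22.9 and 25.4 CPM in mESCs and at 19.5, 22.4 and 21.4 CPM in mOPCs (-0.28, SE 0.10, edgeR adjusted p = 0.0070). The order of the 2 genes was thus opposite in the lines: Zfp874a was the higher in every mESC library and the lower in every mOPC library. Of the 25-base words at the start of their transcripts, 33.3% at Zfp874a and 50.9% at Zfp874b also occurred in other genes. These levels are therefore uncertain as well. Their RefSeq promoters were 85.4% identical (239 of 280 aligned bases), their most used starts lay 4 aligned bases apart, and both held the cAMP response element TGACGTCA, a palindrome found in 1.79% of all RefSeq promoters.

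Zfp458 was the only gene of the cluster at least 2-fold higher in mOPCs, with 8.34, 8.52 and 8.36 CPM in mESCs and 59.6, 63.9 and 59.6 CPM in mOPCs (2.86, SE 0.10, edgeR adjusted p = 8.9e-33). It lay between Zfp455 (0.81, higher in mOPCs) and Zfp457, which did not pass the test (-0.03). Further along, Zfp595 fell from 25.1, 27.9 and 23.2 CPM in mESCs to 2.46, 2.64 and 2.52 CPM in mOPCs. Zfp456 had 11.1, 14.6 and 13.1 CPM in mESCs and 2 tags in all of mOPCs (ratio 570, 95% exact binomial interval 157 to 4713). Its windows overlap those of Gm28041, so that its tags may belong to either gene. Zfp459 fell from 108, 99.3 and 107 CPM to 3.28, 4.06 and 4.398 CPM. Towards the far end, Zfp729b, Zfp729a, Zfp738 and Zfp65 held 131, 151, 113 and 96.3 CPM in mESCs and 8.75, 28.5, 20.1 and 17.9 CPM in mOPCs. The windows of Zfp729a overlap those of Gm49345 (150 CPM in mESCs and 28.2 CPM in mOPCs), so that most of its tags may belong to either gene. Zfp455, Zfp457, Zfp595, Zfp459, both Zfp874 genes and the 4 genes of the last group were named after their values were seen.

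**Figure D4:**
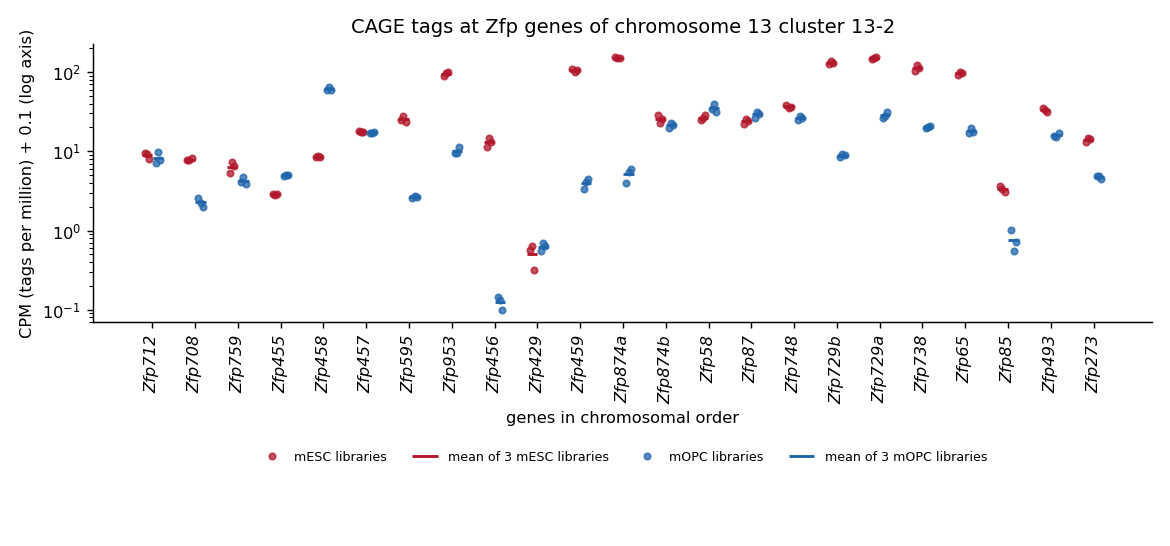
CPM plus 0.1 (log axis) at the 23 genes of cluster 13-2 in chromosomal order, with 1 point per library and a bar at the mean of 3 libraries for mESCs and mOPCs. Zfp458 is the gene furthest above its mESC level in mOPCs (61.0 against 8.41 CPM), and Zfp456 has 2 tags in mOPCs.

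Clusters 7-6, 7-7 and 7-9 held fewer tags in mOPCs, with genes moving both ways. Cluster 7-7 fell from 677, 692 and 696 CPM in mESCs to 352, 360 and 359 CPM in mOPCs. Zfp260 made up 31.0% of its mESC tags, with 213, 211 and 215 CPM in mESCs against 51.6, 58.0 and 58.5 CPM in mOPCs (-1.92, SE 0.08, edgeR adjusted p = 1.1e-28). Zfp568, the KRAB zinc finger gene known to repress a placental Igf2 promoter, fell from 113, 114 and 113 CPM to 11.7, 13.2 and 16.4 CPM (-3.02, SE 0.10) and was named after its values were seen. The gene beside it, Zfp14, was at 5.07, 3.90 and 4.72 CPM in mESCs and at 20.3, 20.4 and 19.8 CPM in mOPCs (2.11, SE 0.12, edgeR adjusted p = 2.0e-22). The ends of the cluster, Zfp84 and Zfp146, differed by -0.96 and 0.27. In cluster 7-6, the first gene Zfp607b differed by 0.33 and the last, Zfp850, by -3.05, from 56.1, 62.7 and 65.0 CPM in mESCs to 6.98, 7.46 and 7.55 CPM in mOPCs.

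In cluster 7-9 the first gene, Zfp553, fell from 84.2, 77.1 and 72.8 CPM in mESCs to 28.4, 26.7 and 30.4 CPM in mOPCs, and the last, Zfp646, did not pass the test (0.16, edgeR adjusted p = 0.077). Zfp768 was at 4.12, 4.08 and 4.45 CPM in mESCs and at 24.4, 23.4 and 24.9 CPM in mOPCs (2.52, SE 0.12, edgeR adjusted p = 2.2e-26). Zfp764 lay a few genes further on and had 126, 49 and 35 tags in the mESC libraries and 1 tag in all of mOPCs (ratio 264, 95% exact binomial interval 46.8 to 10471).

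At the centromeric end of chromosome 7, clusters 7-1 to 7-5 had mESC sums of 0.54 to 1.34 times their mOPC sums. Cluster 7-1 (chr7:4915217-5053723) held 67.0, 66.1 and 71.0 CPM in mESCs and 127, 126 and 127 CPM in mOPCs. Of its 6 genes, 0 were called higher in mESCs, beside 48.8% of all genes tested, and 4 (66.7%) higher in mOPCs, beside 42.4%. Zfp579 rose from 4.67, 4.08 and 6.57 CPM in mESCs to 45.9, 42.5 and 41.7 CPM in mOPCs (3.10, SE 0.12, edgeR adjusted p = 3.9e-30), and Zfp784 from 0.92, 0.78 and 0.87 CPM to 6.89, 5.34 and 6.23 CPM (2.80, SE 0.20). The end genes Zfp628 and Zfp580 differed by 0.78 and -0.16, and the latter did not pass the test. None of these 6 genes encodes the KRAB letters. Among the other C2H2 genes of the span, Fiz1, named after its values were seen, went the other way, from 60.3 CPM in mESCs to 16.7 CPM in mOPCs.

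Cluster 7-5 (chr7:24081924-25227507) had 14 genes. Of these, 6 (42.9%) were called higher in mESCs, beside 48.8% of all genes tested, and 7 (50%) higher in mOPCs, beside 42.4%. Zfp112 was at 4.88, 6.30 and 4.396 CPM in mESCs and at 55.7, 50.6 and 53.0 CPM in mOPCs (3.37, SE 0.11, edgeR adjusted p = 1.4e-33), which made it 20.4% of the mOPC tags of the cluster. Its neighbour at the end of the cluster, Zfp180, was lower in mOPCs by 0.62 on the log2 scale, and the other end, Zfp526, was higher by 0.92. Zfp114, named after its values were seen, fell from 18.0, 20.5 and 20.02 CPM to 2.33, 2.29 and 2.88 CPM. In cluster 7-2 the ends Zfp787 and Zfp28 were higher in mOPCs by 0.24 and 1.16, the first with an edgeR adjusted p of 0.045. In cluster 7-4 the first gene, Zfp551, was higher in mOPCs by 1.19, and the last, Zfp446, differed by 0.23 and did not pass the test. Zfp329, the gene with the fourth highest level in mOPCs, was at 55.5, 50.7 and 51.5 CPM in mESCs and at 56.3, 57.7 and 61.2 CPM in mOPCs (0.15, edgeR adjusted p = 0.086). Cluster 7-3 was the least used, with 18.7 ± 0.48 CPM in mESCs and 13.97 ± 1.76 CPM in mOPCs (SD, n = 3 each) over its 4 genes.

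A gene was called seen in a line when all 3 of its libraries held at least 0.5 CPM, and absent when all 3 held less. By this measure 111 of the 127 genes (87.4%) were seen in both lines, while 10 (7.87%) were seen in mESCs only and 1 (0.79%) was seen in mOPCs only. Neither line showed 3 of them, and Zfp429 and Zfp85 were mixed. Over all protein-coding genes, 9.11% were seen in mESCs only and 3.15% in mOPCs only, and the corresponding shares were 7.87% and 1.12% for the Zfp genes of other chromosomes. The share of genes limited to mESCs was thus near that of all genes.

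The 10 genes seen in mESCs only lay in 5 clusters and outside them: Zfp583 in cluster 7-2, Zfp575 in 7-5, Zfp977, Zfp936 and Zfp819 in 7-8, Zfp764 in 7-9, Zfp456 in 13-2, and Zfp541, Zfp296 and Zfp941 apart. Zfp583 had 9.24, 11.2 and 10.4 CPM in mESCs and no tag in mOPCs, at least 305-fold higher in mESCs. Zfp575 had 124 tags in mESCs and none in mOPCs, at least 51.9-fold higher. Zfp541, known from germ cells in meiosis, had 20, 11 and 14 tags in the mESC libraries, just above the limit for being seen, and none in mOPCs, at least 18.8-fold higher. Zfp296, known for its high level in pluripotent cells, was at 39.0, 37.6 and 33.3 CPM in mESCs and at 0.23, 0.14 and 0.27 CPM in mOPCs (-7.37, SE 0.19, edgeR adjusted p = 2.7e-39). Zfp941 was at 45.8, 42.1 and 45.5 CPM in mESCs and at 0.36, 0.35 and 0.29 CPM in mOPCs (-7.07, SE 0.16, edgeR adjusted p = 5.8e-41).

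Zfp536, a repressor of neuronal differentiation, was the only gene seen in mOPCs only. Its windows held 3, 3 and 2 tags in mESCs and 142, 186 and 386 tags in mOPCs, the latter equal to 6.48, 6.45 and 9.43 CPM (6.04, SE 0.30, edgeR adjusted p = 7.8e-25). The rest of its gene body held 192 tags in mESCs (2.63 CPM) and 326 in mOPCs (3.56 CPM). Antisense tags in its windows numbered 46 and 13. The absence of Zfp536 from mESCs thus holds for the sense strand of its windows only. The genes seen in neither line were Zfp772, Zfp626 and Zfp366, the last known from dendritic cells. Zfp366 had 0 tags in its windows in all 6 libraries, and the limit that a count of 0 allows is 0.0733 to 0.180 CPM per library. The rest of its gene body held 21 tags in mESCs and 9 in mOPCs. Zfp626 had 8 and 3 tags in its windows but 87 and 243 tags in the rest of its gene body in mESCs and mOPCs, so that starts outside the annotated 5′ ends were not counted for it.

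Tags outside the sense windows were also examined at the 10 genes seen in mESCs only. Antisense tags in the same windows numbered 2 to 313 in mESCs and were 0 in mOPCs for 8 of the 10 genes. The exceptions were Zfp296, with 85 antisense tags in mESCs and 49 in mOPCs (1.16 and 0.53 CPM), and Zfp456, with 7 and 4. At 5 of the 8 genes with 0, the mESC libraries themselves held only 2 to 23 antisense tags. At Zfp977, antisense tags numbered 313 in mESCs and 0 in mOPCs, at Zfp936 281 and 0, and at Zfp583 240 and 0. In the rest of the gene body, Zfp936 had 773 tags in mESCs and 4 in mOPCs, Zfp977 257 and 21, Zfp819 90 and 1, and Zfp941 128 and 5. Zfp541, Zfp764 and Zfp575 had only 9, 6 and 3 such tags in mESCs and 0 in mOPCs.

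CpG content was compared over the 113 genes matched to a RefSeq promoter of 300 bases. The ratio of observed to expected CpG had a median of 0.65 over the 99 matched genes seen in both lines and 0.27 over the 9 matched genes seen in mESCs only, beside 0.38 over all 32851 RefSeq promoters. It was below 0.35 in 6 of these 9 and in 10 of the 99, and among the 9 it reached 1.05 at Zfp819. The promoter held the most used start of the gene in 7 of these 9, Zfp583 and Zfp541 being the exceptions, and in 86 of the 99. Over those 7 the median was 0.30 and 4 were below 0.35, and over those 86 the median was 0.67 and 8 were below 0.35. Zfp977 and Zfp936, copies with promoters 92.9% identical, were both among these 4, so the promoters are not independent. Genes at least 2-fold higher in mOPCs had a median of 0.74 (n = 16), and those at least 2-fold higher in mESCs one of 0.52 (n = 42). The ETS word CCGGAAG, on either strand, lay in 27 of the 113 promoters (23.9%), beside 8.86% of all RefSeq promoters. The cAMP response element lay in 7 (6.19%), 5 of them in genes at least 2-fold higher in mESCs and 0 in genes at least 2-fold higher in mOPCs. The NRF1 word GCGCANGCG lay in 15 (13.3%), beside 6.25%, and the GC box GGGCGG in 37 (32.7%), beside 35.7%. The TATA box TATAAA lay in 7 (6.19%), beside 13.6%, the YY1 word AAGATGGC in 6 (5.31%), beside 2.75%, and the octamer ATGCAAAT in 2 (1.77%), beside 1.74%. CCAAT lay in 47.6% of the 42 promoters of genes at least 2-fold higher in mESCs and in 6.25% of the 16 of genes at least 2-fold higher in mOPCs. Zfp975, Zfp976, Zfp977 and Zfp936, copies of 1 family, were all among the 42 and all held CCAAT, so these promoters are not independent either. These matches are descriptions of letters, and the difference between such groups was not tested.

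Start positions were compared between the lines for the 114 genes with at least 30 tags in each. The single most used position was the same in 63 (55.3%), and within 10 bp in 87 (76.3%). In mESCs 112 of 123 genes (91.1%) and in mOPCs 105 of 115 (91.3%) had it within 50 bp of an annotated 5′ end. It held a median of 17.8% of a gene's tags in mESCs and 17.7% in mOPCs, so that use was spread over many positions. At 9 genes the most used positions of the lines lay more than 100 bp apart.

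The farthest switch was at Zfp458. Its mESC start, at position 67278489 of chromosome 13, gave 5.31, 6.12 and 5.86 CPM within 50 bp in mESCs and 0, 0.0347 and 0 CPM in mOPCs. A start 9388 bp downstream, at 67269101, gave 2.85, 2.10 and 1.90 CPM in mESCs and 58.8, 63.3 and 58.9 CPM in mOPCs. The gene's higher level in mOPCs thus lay at the downstream start, while the upstream start held 1 tag in all of mOPCs. Zfp574, in cluster 7-5, did not pass the test in the sum over its windows (29.8 and 28.8 CPM, -0.05, edgeR adjusted p = 0.61). Its starts nevertheless differed. The position at 25077264 gave 27.2, 25.6 and 24.3 CPM in mESCs and 11.9, 10.4 and 11.9 CPM in mOPCs. The position 5192 bp upstream, at 25072072, gave 0.0792, 0 and 0 CPM in mESCs and 24.04, 20.7 and 21.5 CPM in mOPCs. It lay at -495 bp from the nearest annotated 5′ end, at the edge of the gene's windows. Tags beyond that edge counted for the position but not for the sum of Zfp574. The mOPC sum thus lacks part of the tags of this start, and whether the full level of the gene differed between the lines was not tested.

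Several others shifted over shorter distances. At Zfp367 the start used in mESCs fell from 71.5 to 15.5 CPM (means of 3 libraries) and one 780 bp downstream rose from 5.00 to 25.1 CPM. At Zfp184 the values were 5.42 and 0.74 CPM for the mESC start and 2.43 and 18.9 CPM for one 177 bp upstream. At Zfp668 they were 8.83 and 2.53 CPM and, 1156 bp downstream, 0.85 and 3.04 CPM. At Zfp324 they were 2.42 and 0.69 CPM and, 386 bp upstream, 2.38 and 8.81 CPM. At Zfp131 they were 5.39 and 1.66 CPM and, 384 bp downstream, 12.6 and 22.2 CPM. Zfp607b and Zfp566 had positions 105 bp apart that both lines used. At Zfp566 both positions were lower in mOPCs, whereas at the other 8 genes the mESC position was lower in every mOPC library than in every mESC library and the mOPC position was higher. The 9 genes were chosen by this distance, and each position as the most used of its line in these same libraries. That choice favours opposite directions at the pair of positions, and these values are a description with no test.

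**Figure D5:**
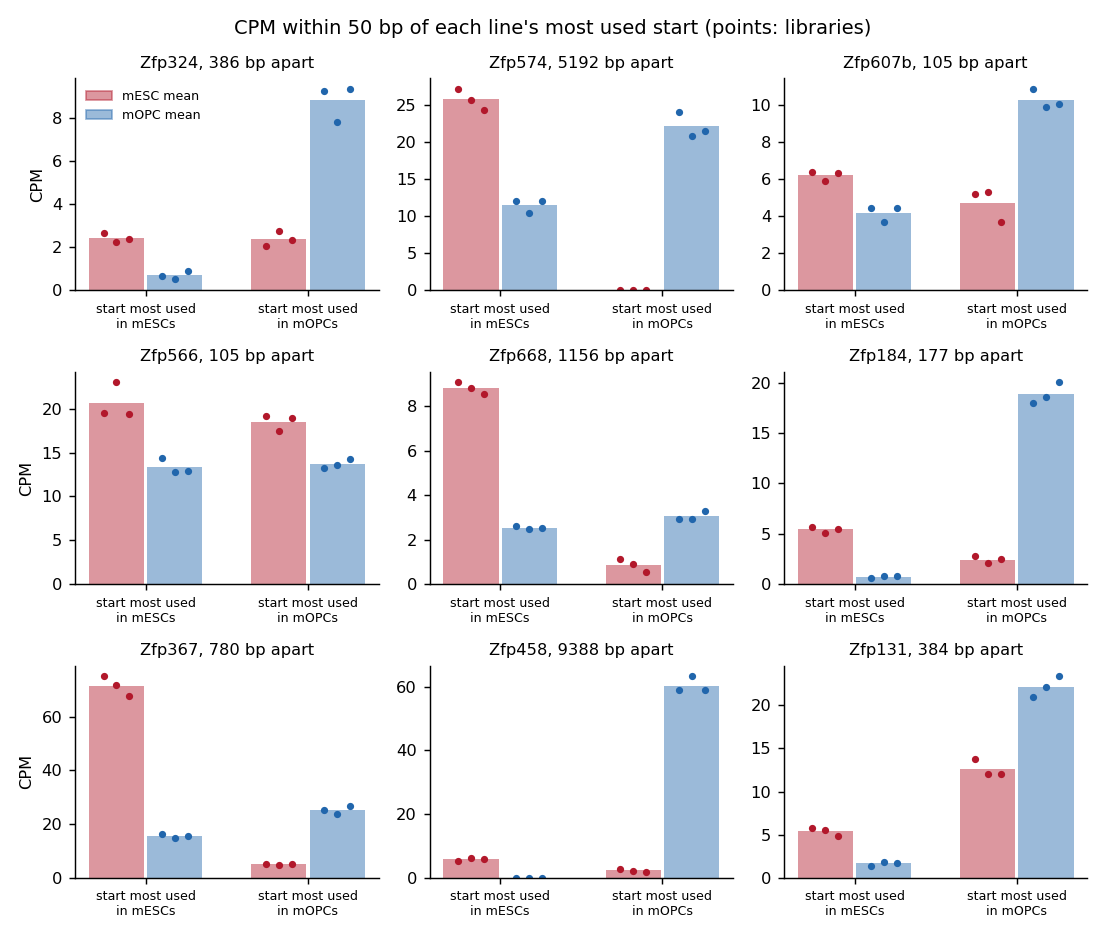
CPM within 50 bp of the start most used in mESCs (left pair of bars) and of the start most used in mOPCs (right pair) at the 9 genes where these lie more than 100 bp apart. Bars are means of 3 libraries and points are libraries, on linear axes from 0. At Zfp458 and Zfp574 the start most used in mOPCs is at 60.3 and 22.1 CPM there and at 2.28 and 0.03 in mESCs.

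Outside the clusters lay 22 genes, of which 11 of 21 tested (52.4%) were higher in mESCs, beside 48.8% of all genes tested, and 7 (33.3%) higher in mOPCs, beside 42.4%. Zfp169, the gene with the highest level in mOPCs, was at 19.6, 18.1 and 18.3 CPM in mESCs and at 83.7, 79.4 and 84.95 CPM in mOPCs (2.14, SE 0.09, edgeR adjusted p = 1.0e-28). Zfp369, second in mOPCs, was at 25.9, 26.2 and 23.8 CPM in mESCs and at 64.1, 64.4 and 64.1 CPM in mOPCs (1.34, SE 0.09, edgeR adjusted p = 2.5e-20). In the order of mOPC levels, Zfp458, Zfp329 and Zfp260 came next with 61.0, 58.4 and 56.0 CPM, and the libraries of each overlapped those of the next. In mESCs the order Zfp975, Zfp808, Zfp976, Zfp141 and Zfp260 (715, 473, 367, 235 and 213 CPM) had no overlap between neighbours except for Zfp141 and Zfp260.

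The machinery that KRAB zinc finger proteins recruit was also examined, as 26 co-repressor and heterochromatin genes chosen with earlier results of these data known. Of these, 17 (65.4%) were higher in mESCs, beside 48.8% of all genes tested, 3 (11.5%) were higher in mOPCs, beside 42.4%, 6 did not pass the test, and the median was -0.92 beside -0.16 over all genes tested. Trim28, the co-repressor bound by the KRAB domain, fell from 356, 317 and 295 CPM in mESCs to 42.4, 41.8 and 47.4 CPM in mOPCs (-2.88, SE 0.09, edgeR adjusted p = 1.2e-34). Setdb1, the methyltransferase it recruits, was at 13.6, 17.4 and 18.4 CPM in mESCs and at 18.7, 18.2 and 16.9 CPM in mOPCs and did not pass the test (0.14, edgeR adjusted p = 0.22). The HP1 genes Cbx5, Cbx3 and Cbx1 were lower in mOPCs by log2 fold changes of -2.04, -2.47 and -1.20. Among histone methyltransferases, Suv39h2 fell from 267 to 11.3 CPM (-4.56), and Suv39h1, named after its values were seen, did not pass the test (-0.07). Resf1, a partner of Setdb1 in retroviral silencing, had a log2 fold change of -3.03 and Mphosph8, of the HUSH complex, one of -1.72. In the same list Morc2a, another HUSH partner, was higher in mOPCs by 1.04. The deacetylase Hdac1 had -2.85 (28.2 CPM in mESCs and 3.88 CPM in mOPCs) and the chromatin remodeller Smarcad1 -1.21. Hdac2 and Ehmt2, named after their values were seen, were the remaining genes called higher in mOPCs, by 0.28 and 0.78. The deacetylase Hdac2 was at 285 CPM in mESCs and 346 CPM in mOPCs, far above Hdac1. Of the DNA methylation genes, Uhrf1, Dnmt3a and Dnmt3b had -2.48, -1.37 and -1.35, and the histone chaperone Daxx had -1.27.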

How the data were processed

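CAGE libraries were made from nuclear RNA of 3 mESC and 3 mOPC samples. Per the paper's methods, the authors demultiplexed the reads, dropped those holding an N, cut off linkers and mapped the resulting tags to mm10, of which only uniquely placed tags were retained. The submitters' processing notes name CASAVA 1.8 and BWA 0.5.9 and the methods name bowtie, so the aligner is uncertain. Whether the deposited counts hold uniquely placed tags only is therefore uncertain too. The deposited values are raw counts of tags per start position and strand, not normalized.

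Tags within 500 bp of the annotated 5′ ends (GENCODE vM21, chromosomes 1 to 19, X and Y) were counted per gene on its strand with Python 3.11.15, numpy 2.4.6 and pandas 2.3.3. A tag in the windows of several genes counted for each, and sums over genes used the union of windows. Genes were compared with edgeR 4.0.16 (R 4.3.3): robust quasi-likelihood test, library totals with TMM factors, filterByExpr, Benjamini-Hochberg adjustment over all genes tested. DESeq2 1.42.0 was an alternative. Other alternatives were library totals alone, no filter, other windows, unshared windows, each library left out, and a replicate block. Fold changes are mOPC over mESC. Where mOPCs had no tag, the bound used 3 counts over the pooled libraries. With 1 to 3 tags, the ratio has a 95% exact binomial interval. Neither covers more than counting error, because PCR copies of a tag could not be removed. C2H2 repeats were counted in translated transcripts as non-overlapping matches to the cysteine and histidine spacing, and promoters were aligned with Biopython 1.88.

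Genes named are the 8 largest differences in each direction among called genes whose libraries do not overlap and with at least 2 CPM in the higher line, all genes seen in 1 line only, the 5 highest in each line, the ends of clusters of 5 or more, Trim28, Setdb1 and called co-repressor genes with a log2 fold change beyond 1. All other genes were named after their values were seen, except the marker genes of the cell types. The genes, lists and rules were chosen with earlier results of these data known. Replicates of a line differed by more than sampling noise (chi-square per degree of freedom 4.30 to 11.7), so none was a repeated reading of the same tags. This cannot tell separate cultures from separate preparations of 1 sample.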

Additional observations from a re-analysis of the deposited data

How the results depend on the processing

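Calls at an adjusted p under 0.05 numbered 63 to 67 higher in mESCs and 37 to 44 higher in mOPCs over all alternatives, beside 66 and 41. No gene called both as reported and under an alternative changed direction. With at least a 2-fold difference, and for the co-repressor genes, every count stayed within 1.5 times the reported count. The number of genes seen in mOPCs only was 2 at a limit of 1 CPM and 0 with tags of the whole gene body. The summed level of the 127 genes in mESCs was 4113 CPM over gene bodies, beside 5645. In mOPCs it was 2268 CPM within 250 bp, 2373 CPM within 1000 bp and 2119 CPM over gene bodies, beside 2333. Clusters numbered 11 at 250 kb and 10 at 1000 kb. Of 571 values of the 41 named genes tested, 552 kept their direction and side of the threshold, 8 lost the call (all of Zfp787) and 11 gained one (Zfp580, Zfp329, Zfp446, Zfp646 and Zfp712). The cause was not tested. Replicate numbers are shared by the lines, but deviations of same-numbered libraries correlated at 0.01, 0.12 and 0.02 only, so that the numbers did not pair them. With the replicate block, 66 genes were higher in mESCs and 41 higher in mOPCs. The median of all genes moved by at most 0.05 on the log2 scale under any scaling over the same genes. Depth limits the genes with fewer than 30 tags, at which start positions were not compared.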
